A study of Mus musculus with 18 samples.

Results

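Neurons from the brains of wild-type (WT) mice were compared with astrocytes from WT brains by small RNA sequencing, with 3 libraries of each, which are 6 of the 18 libraries of the series. Features were mature miRNAs, copies of tRNA genes, piRNAs and Ensembl transcripts, each counted on its own, and a feature entered the comparison when it had at least 5 counts in at least 2 of these 6 libraries. Of the 203513 features counted, 5916 passed this filter, and they held 98.7% of the counts of the 6 libraries. Both groups carried the normal Atxn2 gene on a C57BL/6 background, were aged 10 months and received no treatment. The other 12 libraries are WT microglia and the same 3 cell types from littermates homozygous for an Atxn2 gene with an expanded CAG repeat (KIN), and the KIN neurons and astrocytes serve below to repeat the comparison. Each brain, from mice of both sexes, was dissociated and its cells were taken out by magnetic beads one after another, so neurons and astrocytes come from the same 3 WT animals, although it is not stated which libraries share one. Beads against CD11b removed microglia, beads against ACSA-2 then captured the astrocytes, and the cells labelled neurons were what flowed through a last column that held back other cell types and CD31-bearing cells. Astrocytes were thus selected by a surface protein of their own, whereas neurons were collected as the remainder, and the study describes their RNA yield as low. RNA input was equalised, so every value is a share of a library.

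Mature miRNAs are short RNAs that guide Argonaute proteins to messenger RNAs through bases 2 to 8, their seed, and many of them are characteristic of a cell type. In the brain, miR-124 and miR-128 are best known from neurons, miR-219 and miR-338 from oligodendrocytes, miR-126 from endothelial cells and miR-142 from blood and immune cells. Transfer RNAs, small nucleolar RNAs (snoRNAs), which guide the modification of ribosomal RNA, and small nuclear RNAs (snRNAs) of the spliceosome are present in all cells. Because cell fractions were sequenced in bulk, fewer cells of a type and less of its RNA per cell cannot be told apart.

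The mature miRNAs on which the comparison turned are shown here from 5′ to 3′ with the seed in capitals, as the deposited table gives them. The first set holds miRNAs with the largest differences in favour of astrocytes among those averaging at least 20 CPM (counts scaled to a common library size), together with miR-222-3p, which shares the seed of miR-221-3p. The miR-34 pair has a common seed too.
mmu-miR-375-3p: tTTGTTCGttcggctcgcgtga
mmu-miR-34b-5p: aGGCAGTGtaattagctgattgt
mmu-miR-34c-5p: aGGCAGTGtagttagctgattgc
mmu-miR-219a-5p: tGATTGTCcaaacgcaattct
mmu-miR-219b-3p: aGAATTGCgtttggacaatcagt
mmu-miR-338-3p: tCCAGCATcagtgattttgttg
mmu-miR-221-3p: aGCTACATtgtctgctgggtttc
mmu-miR-222-3p: aGCTACATctggctactgggtct
The neuronal miRNAs follow, and then the miRNAs of blood and immune cells that were higher in the neuron libraries.
mmu-miR-124-3p: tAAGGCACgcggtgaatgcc
mmu-miR-128-3p: tCACAGTGaaccggtctcttt
mmu-miR-142a-3p: tGTAGTGTttcctactttatgga
mmu-miR-146a-5p: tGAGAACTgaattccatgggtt
mmu-miR-451a: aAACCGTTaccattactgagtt
The last set holds the seed families that differed in their behaviour, let-7, miR-29 and miR-17.
mmu-let-7c-5p: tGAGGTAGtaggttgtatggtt
mmu-miR-29a-3p: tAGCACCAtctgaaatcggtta
mmu-miR-29c-3p: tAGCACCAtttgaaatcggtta
mmu-miR-17-5p: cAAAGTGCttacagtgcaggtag
mmu-miR-20a-5p: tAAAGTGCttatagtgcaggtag
In the mouse genome build GRCm39, miR-34b-5p lies in its hairpin gene Mir34b at chr9:51014910-51014932 and miR-34c-5p in Mir34c at chr9:51014376-51014398, both on the minus strand. miR-375-3p lies in Mir375 at chr1:74939820-74939841 on the minus strand. miR-219b-3p in Mir219b at chr2:29735701-29735723 on the plus strand covers the same bases as the second copy of miR-219a-5p in Mir219a-2 at chr2:29735701-29735721 on the minus strand. miR-142a-3p lies in Mir142 at chr11:87647729-87647751 and miR-451a in Mir451a at chr11:77964012-77964033, both on the plus strand.

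The libraries differed in depth and in how alike they were within a group. Total counts ranged from 1211118 to 1956491 in neurons and from 3144427 to 3980687 in astrocytes. Spearman correlations over the features tested were 0.832 to 0.874 within neurons, 0.878 to 0.927 within astrocytes and 0.585 to 0.733 between the groups, and they are a description, since all features of a library share its depth. Replicate 2 of the neurons stood apart, with 902 features more than 2-fold above both other neuron libraries, against 298 for replicate 3. Its tRNA, mitochondrial tRNA, Rny1 and Bc1 were high, and so were the transcripts of Mbp (55.3 CPM against 0 and 4.20) and Nefh (29.6 CPM against 0 and 0), which encode a myelin protein and an axonal neurofilament. Replicate 1 of the neurons, the shallowest library, had 891 features more than 2-fold below both others, and replicate 2 of the astrocytes had 807.

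Of the 5916 features, 1698 (28.7%) were called, which means an adjusted p of at most 0.05 by the quasi-likelihood test of edgeR and a log2 fold change of at least 1 in size. Log2 fold changes are those of neurons over astrocytes throughout. There were 606 features (10.2%) called higher in neurons and 1092 (18.5%) called higher in astrocytes, so that 35.7% of the calls were higher in neurons, and the median log2 fold change of all features was −0.50. This split depended on the scaling. It was 46.1% with library totals alone, where the median was −0.30, and 94.3% when the libraries were scaled on mature miRNAs alone, where the median was +1.79 and 3104 features were called. On that last scale the median was below 0 for mature miRNAs (−0.37) and mitochondrial tRNAs (−0.47) and above 0 for all other RNA classes, although 41 protein-coding transcripts and 39 transcripts of miRNA hairpin genes were still called higher in astrocytes. Folds are to be read against the median of −0.50. Values did not overlap between the groups for 3150 features (53.2%). The number of calls was lowest without replicate 3 of the astrocytes, 911, and without replicate 1 of the astrocytes, 1033, and highest without replicate 2 of the neurons, 1940. The calls in favour of astrocytes fell to 692 without replicate 1 and to 621 without replicate 3 of the neurons.

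The shares of some RNA classes were higher in the neuron libraries and those of others lower, although none passed the threshold. Mature miRNAs took 5.05%, 8.30% and 6.09% of the counts of the astrocyte libraries and 0.964%, 1.93% and 1.08% of the neuron libraries. Mitochondrial tRNAs took 7.39%, 7.09% and 6.93% of astrocyte counts and 0.238%, 4.03% and 0.555% of neuron counts. The groups did not overlap in either class, although replicate 2 of the neurons was nearest to the astrocytes in both. snoRNAs moved the other way, with 22.4%, 21.5% and 22.9% in astrocytes and 31.81%, 23.998% and 28.77% in neurons, and so did the features without a type in the table, with 15.5% to 16.8% in astrocytes and 20.9% to 24.97% in neurons. The tRNA share was 11.2%, 11.1% and 10.2% in astrocytes and 2.94%, 10.6% and 4.54% in neurons, where replicate 2 lay within the range of the astrocytes. The protein-coding share was 3.49% to 3.60% in astrocytes and 3.92% to 4.46% in neurons. Each class without overlap reached p = 0.1 (exact permutation, two-sided), below which 3 libraries against 3 cannot go, with an adjusted value of 0.178 over 16 classes, and tRNA reached p = 0.2 (exact permutation, adjusted 0.291), so no share passed the threshold.

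**Figure D1:**
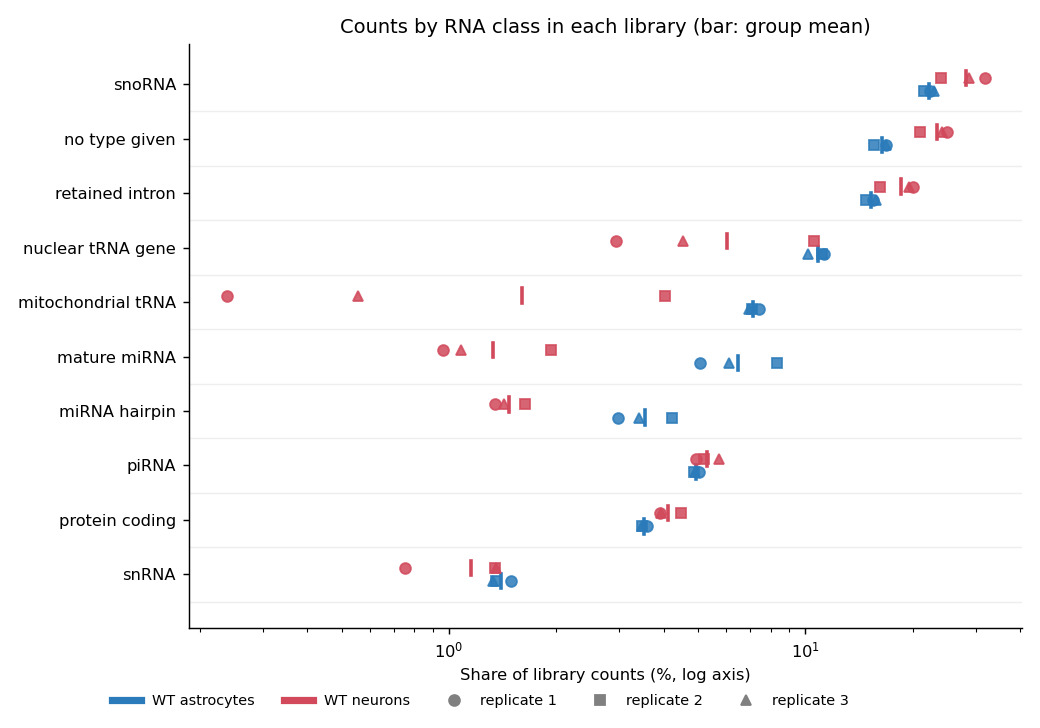
Share of library counts (%) taken by RNA classes in each of the 3 WT astrocyte and 3 WT neuron libraries, with the group mean as a bar. Mature miRNA and mitochondrial tRNA are lower in all 3 neuron libraries, snoRNA is higher in all 3, and tRNA overlaps through neuron replicate 2.

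Feature by feature, miRNAs had a larger share of calls than the whole table, 60.5% for the mature sequences. Of 362 mature miRNAs, 58.6% were called higher in astrocytes and 1.93%, which are 7 miRNAs (4 without astrocyte replicate 1), higher in neurons, with a median log2 fold change of −2.66 against −0.50 for all features. The 261 Ensembl transcripts of miRNA hairpin genes gave 152 and 10 calls (4 in favour of neurons without astrocyte replicate 1 or 3) and a median of −2.26, and they are counted apart from the mature sequences. The 2051 protein-coding transcripts were called in both directions about equally, with 301 higher in neurons, 261 higher in astrocytes and a median of −0.06. Features typed as snRNA were called mostly higher in neurons, 18 of 69 against 3, with 10, 7 and 10 higher without astrocyte replicate 1, astrocyte replicate 3 and neuron replicate 3. This did not hold for another 135 features without a type that are snRNAs in the GENCODE annotation. They gave 3 calls higher and 5 lower, with a median of −0.0041. Features typed as snoRNA gave 35 higher (11.6%) and 60 lower (19.9%) of 302, shares near the 10.2% and 18.5% of all features. Without astrocyte replicate 1 or 3 they gave 16 and 17 higher and 34 and 33 lower. Among the features without a type that are snoRNAs in the GENCODE annotation, 10 were called higher and 60 lower. Their median was −1.0005, against −0.2558 for the typed ones. Among protein-coding transcripts the calls in favour of astrocytes fell to between 124 and 168 without astrocyte replicate 1 or 3 or neuron replicate 1 or 3, and those in favour of neurons were 190 without astrocyte replicate 3. Processed pseudogenes gave 7 higher and 38 lower of 110, but the lower ones were 3 without replicate 1 and 3 without replicate 3 of the astrocytes, 8, 21 and 6 without replicates 1, 2 and 3 of the neurons, and 57 without replicate 2 of the astrocytes.

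**Figure D2:**
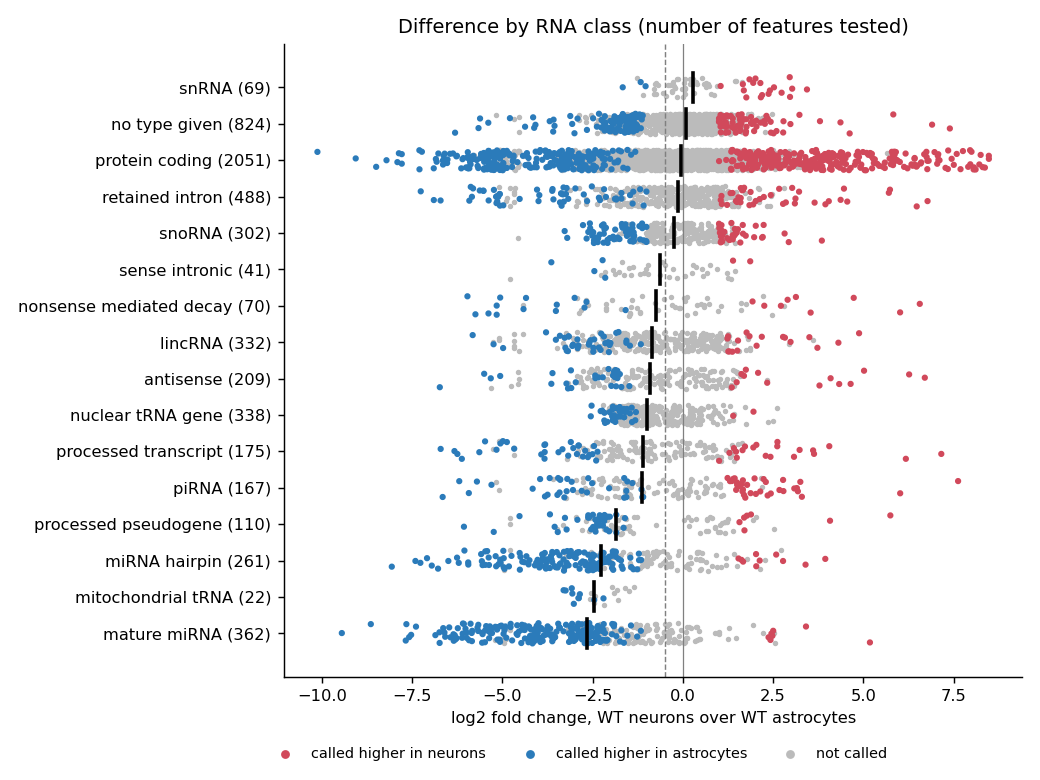
Log2 fold change of WT neurons over WT astrocytes for each feature, by RNA class, with called features coloured and the class median marked. The median is −2.66 for mature miRNA, −2.46 for mitochondrial tRNA and −0.06 for protein-coding transcripts.

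The miRNAs with the largest differences were nearly absent from the neuron libraries. miR-375-3p, known from endocrine and neuroendocrine cells, stood at 84.4, 116 and 97.5 CPM in astrocytes and at 0, 0.494 and 0 in neurons, where a single read was counted. Its ratio was 502 in favour of astrocytes, with a 95% counting interval of 89.8 to 19835 (edgeR adjusted p 0.000887 for the fitted difference). miR-34c-5p, which is abundant in ciliated epithelia such as the ependyma, stood at 744, 1348 and 1081 CPM in astrocytes and 0.749, 18.3 and 7.21 in neurons, which gave −6.86 ± 0.83 (log2 fold change and SE; edgeR adjusted p 0.0018). miR-34b-5p of the same seed had a log2 fold change of −7.40 ± 0.64. The values of these miRNAs did not overlap, and miR-34a-5p, the remaining tested miRNA with this seed, was called as well (−4.58).

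The miRNAs of oligodendrocytes were higher in the astrocyte libraries as well. miR-219a-5p, which promotes myelin-forming differentiation, stood at 959, 1758 and 1178 CPM in astrocytes and 0.749, 36.1 and 0.601 in neurons (−6.64 ± 1.27, edgeR adjusted p 0.0072). miR-338-3p stood at 456, 1017 and 609 CPM in astrocytes and 1.498, 16.8 and 0 in neurons (−6.74 ± 1.12, edgeR adjusted p 0.00441). Summed over the 5 oligodendrocyte miRNAs, of which 4 passed the filter through the astrocyte libraries and were called higher there, the level was 1898 to 3625 CPM in astrocytes and 4.50, 119 and 0.601 CPM in neurons. The level in neuron replicate 2 was far above that of the other neuron libraries and still far below every astrocyte library. miR-219b-3p, miR-221-3p and miR-365-3p completed the 8 miRNAs with the largest differences in this direction, with log2 fold changes of −6.75, −6.47 and −6.12.

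The label of the neuron libraries was checked against neuronal markers, and the neuronal miRNAs went against it. miR-124-3p, which represses non-neuronal genes in neurons, stood at 1035, 2899 and 1149 CPM in astrocytes and at 37.5, 152.7 and 101 CPM in neurons. miR-128-3p stood at 253, 563 and 272 CPM in astrocytes and at 5.99, 49.4 and 9.61 CPM in neurons. Every astrocyte library was above every neuron library for both, with log2 fold changes of −4.12 ± 0.62 (edgeR adjusted p 0.00293) and −4.04 ± 0.79 (edgeR adjusted p 0.00773). Of 13 neuronal miRNAs tested, 10 were called higher in astrocytes and 0 higher in neurons, with a median of −3.55 against −2.66 for all mature miRNAs, and 5 of the 13 had passed the filter through astrocytes alone. Scaled on mature miRNAs alone, 5 of the 13 were still called higher in astrocytes, 0 were called higher in neurons and the median was −1.27. The libraries are called neurons below because they are labelled so.

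Fragments of neuronal messenger RNAs were few in both groups. The 69 transcripts of 12 neuronal marker genes summed to 30.8, 9.76 and 31.1 CPM in astrocytes and 47.9, 67.7 and 31.8 CPM in neurons, and 7 of these transcripts passed the filter. Stmn2, a growth cone protein, and Tubb3, a tubulin of neurons, were called higher in neurons. Stmn2-201 was at 0.649, 0 and 0.324 CPM in astrocytes and 10.5, 3.46 and 1.201 CPM in neurons, a ratio of 14.7 with a counting interval of 4.45 to 76.6. Tubb3-201 differed by +2.47 ± 0.62 (edgeR adjusted p 0.02). The call of Stmn2-201 was lost without astrocyte replicate 2 or 3 (adjusted p 0.0678 and 0.0815) and that of Tubb3-201 without astrocyte replicate 3 (0.0504). Snap25 of the synapse summed to 6.49, 1.43 and 7.12 CPM in astrocytes against 0, 1.48 and 1.80 CPM in neurons, and neither of its tested transcripts was called, although Snap25-202 was called higher in astrocytes without astrocyte replicate 2 (−2.95). Rbfox3, which encodes the nuclear marker NeuN, summed to at most 0.494 CPM in neurons and 2.92 CPM in astrocytes.

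Astrocyte transcripts were higher in the libraries labelled astrocytes. The 79 transcripts of 10 astrocyte marker genes summed to 359, 343 and 380 CPM in astrocytes and 9.74, 12.4 and 5.40 CPM in neurons. All 33 of them that passed the filter passed it through the astrocyte libraries, so that their call rate, 30 higher in astrocytes and 0 higher in neurons, follows in part from the filter. Slc1a2-202, the main glutamate transporter of astrocytes, stood at 112.6, 123.4 and 127.3 CPM in astrocytes and 0.749, 0.988 and 1.80 CPM in neurons, without overlap (−6.61 ± 0.46, edgeR adjusted p 0.00064). Slc6a11-201, a GABA transporter of astrocytes, was at 57.1, 51.9 and 62.2 CPM in astrocytes and had no count in neurons, which makes it at least 95.2-fold lower there with a floor of 3 counts over the group. Aldoc and Gfap had no count in any neuron library. S100b was not called, with 1.62 to 2.87 CPM in astrocytes and 0 to 5.24 CPM in neurons.

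Markers of several other cell types divided between the groups. Endothelial miR-126a-3p had 283, 504 and 378 CPM in astrocytes and 4.50, 21.7 and 11.4 CPM in neurons, and both miR-126a arms were called higher in astrocytes (−4.92 and −4.89). The mural cell miRNA miR-145a-5p was called as well (−3.94), whereas miR-143-3p overlapped between the groups. None of the 3 endothelial transcripts tested was called, and the list had summed levels of 32.7 to 46.7 CPM in astrocytes and 60.6 to 69.7 CPM in neurons. Most of these sums came from Pecam1, with 42.2, 40.2 and 24.6 CPM in astrocytes and 63.7, 53.8 and 51.0 CPM in neurons. Bsg had 2.58 to 5.18 CPM in astrocytes and 5.99 to 14.3 CPM in neurons. Cldn5, Flt1 and Cdh5 did not exceed 2.27 CPM in any library, and Cldn5 had no count in neurons. Microglial transcripts were at or near the detection limit in both, with 0.574 to 2.60 CPM summed over 28 transcripts in astrocytes and 2.25 to 3.46 CPM in neurons, and Tmem119 and Aif1 had no count at all. Oligodendrocyte transcripts summed to 31.4 to 32.8 CPM in astrocytes and to 7.49, 83.5 and 12.0 CPM in neurons, where the middle value is replicate 2.

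The 7 mature miRNAs higher in neurons were led by those of blood and immune cells. miR-142a-3p stood at 7.14, 10.3 and 8.10 CPM in astrocytes and 26.97, 157 and 88.9 CPM in neurons (+3.41 ± 0.63, edgeR adjusted p 0.00624). miR-146a-5p, a brake on inflammatory signalling, stood at 11.4, 25.5 and 15.5 CPM in astrocytes and 70.4, 140 and 72.1 CPM in neurons (+2.43 ± 0.46, edgeR adjusted p 0.00709). The lowest neuron library was above the highest astrocyte library for both. miR-142a-5p (+5.18) and miR-155-5p (+2.48) were also called, so that 4 of 6 myeloid miRNAs were called higher in neurons. miR-223-3p of the same list overlapped and was not called. It stood at 2.60, 3.16 and 3.56 CPM in astrocytes and 0.749, 6.42 and 1.80 CPM in neurons. miR-150-5p of lymphocytes, the most abundant of the list, stood at 153.8 to 194.6 CPM in astrocytes and 305 to 358 CPM in neurons without overlap, but its log2 fold change of +0.96 fell short of the threshold. miR-451a of red blood cells stood at 19.5, 37.0 and 23.0 CPM in astrocytes and 108, 270 and 57.6 CPM in neurons (+2.45 ± 0.59, edgeR adjusted p 0.017), and its call was lost without astrocyte replicate 1 or 3 (adjusted p 0.057 and 0.0626). The other tested miRNA of the erythroid list, miR-486a-5p, overlapped and was not called. Its levels were 7.79, 16.1 and 7.77 CPM in astrocytes and 18.7, 21.2 and 3.60 CPM in neurons. miR-150-5p was called without astrocyte replicate 2 (+1.21) or neuron replicate 1 (+1.10). The remaining 2, miR-6240 (+2.50) and miR-296-3p (+2.37), were named after their values had been seen, and each was not called without some single libraries. For miR-6240 these were any astrocyte library (edgeR adjusted p 0.0771 to 0.0989) or neuron replicate 1 (+1.53), and for miR-296-3p astrocyte replicate 1 or 2 or neuron replicate 1 (0.0678 to 0.0851).

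**Figure D3:**
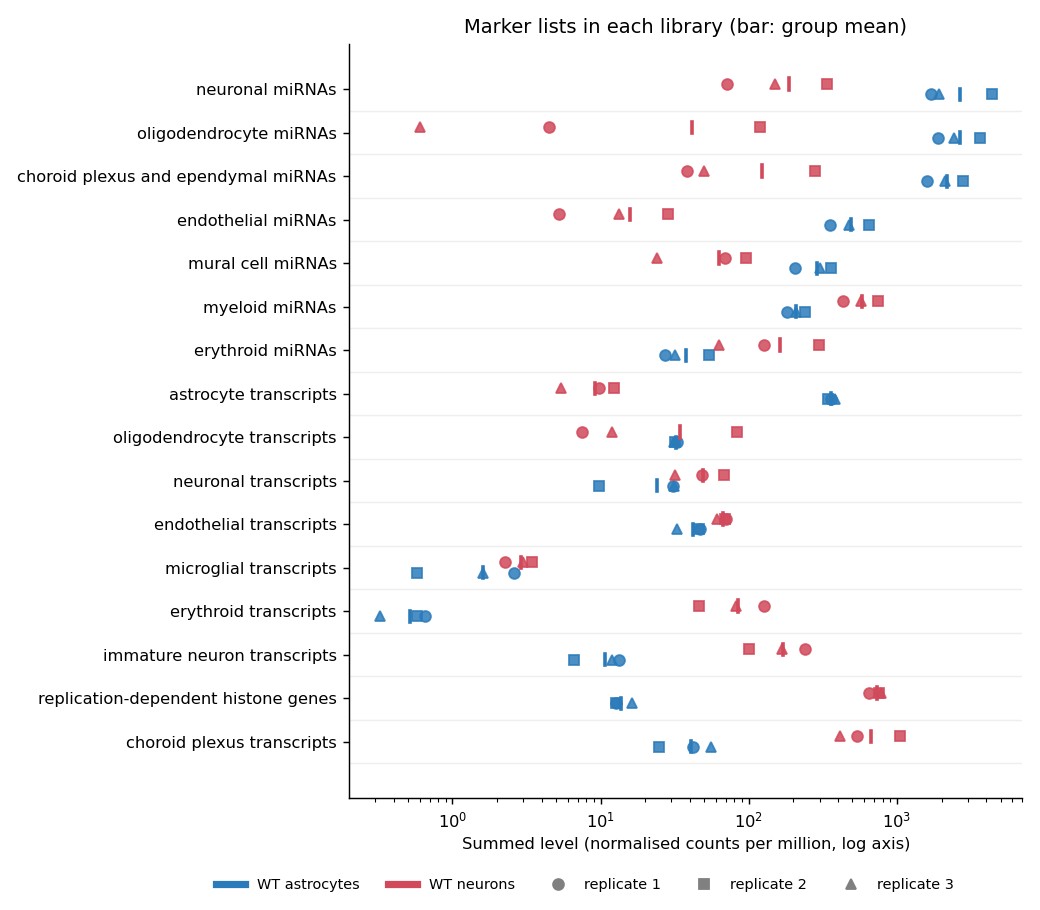
Summed level (CPM, log axis) of each marker list in the 3 WT astrocyte and 3 WT neuron libraries, with the group mean as a bar and the replicate as the symbol. Neuronal, oligodendrocyte, endothelial and choroid plexus and ependymal miRNAs are lower in every neuron library, while myeloid miRNAs, erythroid transcripts, immature neuron transcripts and histone transcripts are higher.

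Families of miRNAs fell together to different degrees, beside the 58.6% of all mature miRNAs that were called higher in astrocytes. Of 19 tested let-7 and miR-98 miRNAs, which are known for the repression of growth genes and rise with differentiation, 17 were called higher in astrocytes, with a median of −3.15. Of the 19, 8 had passed the filter through astrocytes alone. The summed level of the family was 10294, 18093 and 13652 CPM in astrocytes and 2148, 2845 and 1594 CPM in neurons, and the highest neuron library lay below the lowest astrocyte library. The 9 members with the let-7 seed were all called, from −4.21 to −1.96, the least for let-7c-5p (2581, 4031 and 3335 CPM against 942, 980 and 640 CPM). On the scale of mature miRNAs alone, let-7c-5p was at +0.49 and not called. The 6 tested miRNAs of the miR-29 family, 3 of which had passed the filter through astrocytes alone, were all called, with a median of −5.17. In this family miR-29b-3p stood at 850, 1741 and 1032 CPM in astrocytes and 18.0, 211.4 and 57.6 CPM in neurons. Its seed partners miR-29a-3p and miR-29c-3p differed by −2.29 and −5.29, and on the scale of mature miRNAs by +0.02 and −3.07. The call of miR-29a-3p was lost without astrocyte replicate 2 (−1.76, edgeR adjusted p 0.0515) or neuron replicate 3 (−2.01, 0.0523).

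Other abundant families were called as a whole or in part. miR-9-5p, a miRNA of the neural lineage, stood at 5133, 9072 and 6324 CPM in astrocytes and 471, 1580 and 879 CPM in neurons (−2.81 ± 0.44, edgeR adjusted p 0.00353). Its other arm, miR-9-3p, differed less (−1.27) and was called higher in neurons on the scale of mature miRNAs (+1.21). Its call was lost without astrocyte replicate 2 or 3 or neuron replicate 1 or 3 (−1.34 to −0.72, edgeR adjusted p 0.0571 to 0.105). The miR-30 family gave 9 of 10 calls in favour of astrocytes, the miR-23/27/24 clusters 7 of 8 and the miR-99/100 and miR-125 families 9 of 11. The miR-15 and miR-16 family gave 5 of 9, near the 58.6% of all mature miRNAs, and 3 of 9 without neuron replicate 3. Its median was +0.90 on the scale of mature miRNAs. In this order 4, 4, 6 and 4 members of these families had passed the filter through astrocytes alone, so the call rates follow in part from the filter. miR-125b-5p, the most abundant of these, stood at 6116 to 8092 CPM in astrocytes and 857 to 2101 CPM in neurons. miR-92b-3p, a miRNA of neural progenitors, was at 543, 606 and 614 CPM in astrocytes and 15.0, 24.7 and 13.8 CPM in neurons (−5.03 ± 0.36, edgeR adjusted p 0.00064).

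A few clusters were not called in either direction. None of the 8 tested miRNAs of the miR-17-92 cluster, which is known for its activity in proliferating cells, was called, and their median was +0.64, although 2 were called higher in neurons without astrocyte replicate 2 and 3 without neuron replicate 1. miR-19b-3p stood at 81.1, 159 and 98.1 CPM in astrocytes and 91.4, 312.2 and 217.97 CPM in neurons, with overlap. Of the 4 tested miRNAs with the seed shown for miR-17-5p and miR-20a-5p, 0 were called. Relative to other mature miRNAs the cluster was high in neurons, since 7 of its 8 members were called higher there when the libraries were scaled on mature miRNAs alone, with a median of +3.00. The miR-106b-25 cluster (0 of 5 called, median −0.51), the miR-183 cluster (0 of 3) and miR-21a-5p (−1.27, not called) also had differences closer to 0 than the median miRNA. Without neuron replicate 2, miR-21a-5p was called higher in astrocytes (−1.75, edgeR adjusted p 0.00841), as were 2 of the miR-106b-25 and 1 of the miR-183 cluster. miR-21a-5p was also called with the replicate number as a block (0.00388), with no filter (0.00162), with the size factors of DESeq2 in edgeR (0.0485) and in 1 fit of all 18 libraries (0.0407), and on the scale of mature miRNAs it was called higher in neurons (+1.13). In the Dlk1-Dio3 cluster, an imprinted locus whose miRNAs are rich in the brain, 13 of 45 were called higher in astrocytes, 8 to 27 when single libraries were left out, with the highest count without neuron replicate 2. Of the 45, 37 had passed the filter through astrocytes alone. The miR-200 family gave 1 call in favour of astrocytes of 4 (0 to 2 without single libraries), the miR-181 family 2 of 6 and the Sfmbt2 cluster 2 of 8 (0 to 2). All 8 of the Sfmbt2 cluster had passed the filter through astrocytes alone. The medians of the miR-200 and miR-181 families and of the Sfmbt2 and Dlk1-Dio3 clusters were above 0 on the scale of mature miRNAs. On the mature miRNA scale 55 miRNAs were called higher in neurons and 71 higher in astrocytes, against 49.5% and 3.01% of all features.

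**Figure D4:**
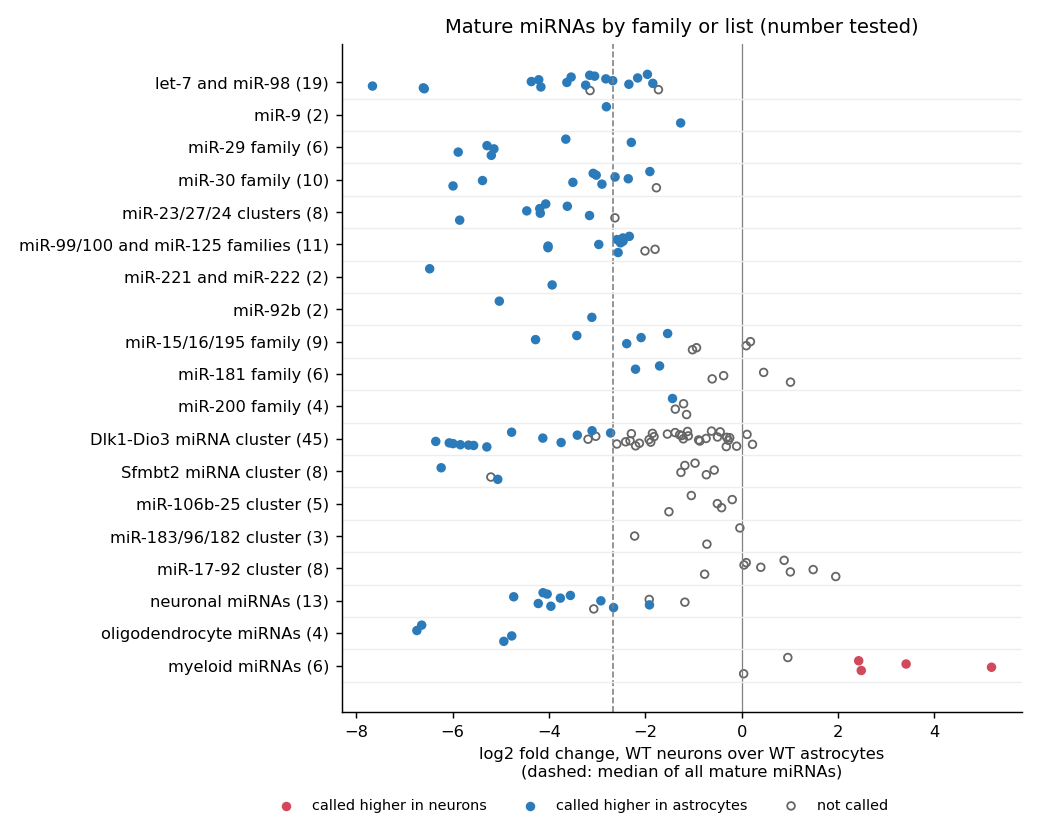
Log2 fold change of WT neurons over WT astrocytes for each tested mature miRNA, by family or list, with called miRNAs filled and the median of all 362 mature miRNAs (−2.66) as a dashed line. let-7, miR-29 and oligodendrocyte miRNAs lie left of 0, the miR-17-92 cluster lies around 0 and the myeloid miRNAs lie right of it.

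Several transcripts that host a miRNA were called on the same side as that miRNA, and their reads and those of the hairpin cannot be told apart. Mir124a-1hg-201, which holds Mir124a-1, stood at 68.5, 170 and 77.1 CPM in astrocytes and 4.50, 9.39 and 13.2 CPM in neurons (−3.52 ± 0.55, edgeR adjusted p 0.00351). Egfl7-206, which holds Mir126a, was lower in neurons by 4.52 on the log2 scale, a transcript of A330023F24Rik, which holds Mir29b-2 and Mir29c, by 3.98, and D630033A02Rik-202, which holds Mirlet7i, by 3.92. 6720427I07Rik-201, with 3 let-7 hairpins inside, had 996 to 1775 CPM in astrocytes and 130 to 276 CPM in neurons. The 135 retained-intron transcripts with a small RNA gene inside held 87.1% of the counts of their class.

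Protein-coding transcripts higher in neurons belonged to several groups. One was that of the replication-dependent histone genes, whose messenger RNAs lack a poly(A) tail and are made in S phase. The 72 transcripts of this list summed to 12.7, 12.6 and 16.2 CPM in astrocytes and 644, 758 and 782 CPM in neurons, so the groups were far apart and the spread within each was small. All 66 that passed the filter passed it through the neuron libraries, 65 of them were called higher in neurons, and 31 of the 66 genes had no count in astrocytes. H1f2-201, a linker histone, stood at 0.973, 0.574 and 1.30 CPM in astrocytes and 56.9, 24.2 and 35.4 CPM in neurons (+5.29 ± 0.56, edgeR adjusted p 0.00158). H3c6-201 had no count in astrocytes and 14.2, 23.2 and 16.8 CPM in neurons, which is at least 60.2-fold higher. The histone genes are near-identical copies that share reads, so the values of single genes are uncertain. This list was drawn up after values had been seen, as were those of immature neurons, the cell cycle, choroid plexus secretion and transport, and leukocytes below.

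Transcripts of immature neurons and of dividing cells were also higher in neurons. Transcripts of 20 genes of immature neurons, such as Dcx, Sox4 and Sox11, summed to 13.3, 6.60 and 12.0 CPM in astrocytes and 240, 100 and 169 CPM in neurons, and all 15 that passed the filter were called, 14 of them having passed through neurons alone. Sox11-201, a transcription factor of young neurons, stood at 0.973, 0 and 0.648 CPM in astrocytes and 14.2, 13.3 and 15.6 CPM in neurons (+4.65 ± 0.68, edgeR adjusted p 0.00274). Tubb2b-201, a tubulin of growing neurites, stood at 2.60, 2.58 and 1.30 CPM in astrocytes and 30.7, 7.41 and 12.6 CPM in neurons (+2.91 ± 0.63, edgeR adjusted p 0.0117), and without astrocyte replicate 3 it was not called (0.0527). Cell cycle transcripts summed to 112 to 147 CPM in astrocytes and 173 to 196 CPM in neurons, and of 7 tested 5 were called higher, all 5 having passed the filter through neurons alone, among them Ccnd2-201 (+4.81) and Mki67-201, the gene of the proliferation marker Ki-67, which had 1 read in astrocytes and a ratio of 102 with a counting interval of 17.5 to 4098. The 2 most abundant of that list, which are transcripts of Mcm7 and Top2a, were not called (both −0.57), but on the scale of mature miRNAs both were called higher in neurons. Most of the astrocyte sum came from Mcm7, so the sum says little about the other genes. The transcripts of Mcm7 stood at 72.4, 112 and 89.7 CPM in astrocytes and 31.5, 105 and 58.8 CPM in neurons. Ranked by level, the 6 libraries had the same order for Mcm7 and for the summed miR-106b-25 cluster, whose median log2 fold change was −0.51. Whether the reads of Mcm7 came from its messenger RNA or from small RNAs was not tested, so its level is not shown to be that of a cell cycle messenger RNA. Without neuron replicate 2 the transcript of Mcm7 was called higher in astrocytes (−1.12, edgeR adjusted p 0.0452).

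Transcripts of the choroid plexus, the epithelium that makes cerebrospinal fluid, were higher in neurons, while miRNAs of choroid plexus and ependyma were lower. Ttr-201, which encodes the thyroid hormone carrier transthyretin, stood at 19.14, 10.04 and 23.96 CPM in astrocytes and 307, 580 and 249 CPM in neurons (+4.42 ± 0.50, edgeR adjusted p 0.0018). A transcript of Enpp2, which encodes the lipid enzyme autotaxin, was higher by 4.37 on the log2 scale. The 95 transcripts of 19 secretory and transport genes of this epithelium summed to 24.7 to 55.7 CPM in astrocytes and 413 to 1054 CPM in neurons, and all 16 that passed the filter were called, 11 having passed it through neurons alone. Without neuron replicate 2 only 9 of them were tested, and all 9 were called. In contrast, the 5 tested miRNAs of the choroid plexus and ependymal list, miR-204-5p and the miR-34b and miR-34c arms, were all called higher in astrocytes, and their summed level was 1591 to 2773 CPM there and 38.2, 281 and 49.8 CPM in neurons. miR-204-5p itself was at 520, 788 and 562 CPM in astrocytes and 33.7, 227 and 32.4 CPM in neurons (−2.67 ± 0.74, edgeR adjusted p 0.0289), and it stayed called without neuron replicate 2 but not without any other single library (adjusted p 0.0541 to 0.0767). On the mature miRNA scale 4 of these 5 were called higher in astrocytes.

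Globin transcripts were close to absent from astrocytes. Hbb-bs-201, a beta globin, had 0, 0 and 0.324 CPM in astrocytes and 49.4, 18.8 and 33.0 CPM in neurons, a ratio of 306 with a 95% counting interval of 54.1 to 12143. Summed over 8 erythroid transcripts the level was 0.324 to 0.649 CPM in astrocytes and 46.4 to 127 CPM in neurons, and the 6 that passed the filter, through neurons alone, were called higher. The leukocyte list of 10 genes summed to 1.15 to 2.27 CPM in astrocytes and 9.88 to 15.7 CPM in neurons, with Rac2-201 as the 1 transcript tested (called higher in neurons, but not without astrocyte replicate 1 or 2, with edgeR adjusted p 0.0648 and 0.0511). Most of its genes were at or near the detection limit. Lyz2, S100a8 and S100a9 had no count in either group, and the highest level, of Ptprc and Rac2, was 6.74 CPM. The part that RNA of blood, choroid plexus or dividing cells had in the other differences was not tested.

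Ribosomal protein genes divided by whether a small RNA gene lay inside the transcript, a split made after values had been seen. Of all 81 tested transcripts of these genes 44 were called higher in neurons and 2 lower, and the higher ones were 29 without astrocyte replicate 3, 26 of 59 tested without neuron replicate 3 and 14 of 49 without neuron replicate 1. Of the 38 tested protein-coding transcripts without one, 36 were called higher in neurons and 0 lower, and the summed level of all such transcripts, tested or not, was 41.5, 28.7 and 37.6 CPM in astrocytes and 550, 216 and 327 CPM in neurons. All 38 had passed the filter through the neuron libraries, and 11 were tested without neuron replicate 1, of which 9 were called, and 21 without neuron replicate 3, which were all called. Of 28 transcripts with a snoRNA or other small RNA gene inside, 1 was called higher and 2 lower, with a median of −0.16. All 28 had passed the filter through both groups and the 38 through neurons alone, so the contrast in call rates follows in part from the filter. Reads of these transcripts and of the small RNAs inside them cannot be told apart. Rpl13-202, the most abundant of them, stood at 11855, 13151 and 12724 CPM in astrocytes and 31538, 13738 and 16378 CPM in neurons and was not called (+0.71). Rps20-202 was called lower (−1.84), though not without astrocyte replicate 1 or 3 (edgeR adjusted p 0.0517 and 0.0593), and was above 0 on the scale of mature miRNAs. Rps29-201, the most abundant without a small RNA inside, stood at 0.648 to 1.15 CPM in astrocytes and 8.40 to 17.2 CPM in neurons (+3.57).

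Cytosolic tRNA differed less than miRNA and rested on single libraries. Of the tRNA gene copies 34 (10.1%, against 18.5% of all features) were called higher in astrocytes and 2 higher in neurons, with a median of −1.003, which was +1.12 on the scale of mature miRNAs, where no copy was called higher in astrocytes by edgeR and calls were in favour of neurons. The copies called higher in astrocytes were 5 to 15 without any single library other than neuron replicate 2, and 224 without that library. Gene copies share reads, so copies with the same anticodon and sequence family were summed into isodecoders, in a table where 32.1% of 5757 features were called. Of 179 isodecoders 23 were called higher in astrocytes and 3 higher in neurons, with a median of −0.81. tRNA-Arg-TCT-1 stood at 880, 1038 and 833 CPM in astrocytes and 58.4, 394 and 113 CPM in neurons (edgeR adjusted p 0.0183). tRNA-Ile-AAT-4 (−2.50) and tRNA-Arg-TCG-2 (−2.18) were the others with the largest differences in this direction. tRNA-Ala-AGC-8 (+2.02), tRNA-Gly-GCC-3 (+1.48) and tRNA-Glu-CTC-2 (+1.16) were the 3 higher in neurons, and tRNA-Gly-GCC-3 stood at 189, 344 and 224 CPM in astrocytes and 815, 699 and 476 CPM in neurons. By amino acid, the median was below 0 in 18 of 22 groups, and threonine isodecoders had the most calls, 6 of 13. Without neuron replicate 2 the number of isodecoders called rose from 26 to 120, and without any other single library it was 6 to 16.

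Mitochondrial tRNA differed more, with the same library in between. mt-Ts2-201, the most abundant, stood at 14131, 14624 and 13766 CPM in astrocytes and 232, 4777 and 745 CPM in neurons (−2.88 ± 0.90, edgeR adjusted p 0.0428), and it stayed called only without neuron replicate 2 (adjusted p 0.0503 to 0.0936 without the others), as did mt-Tk-201 (0.0524 to 0.0921). mt-Tc-201 (−3.31), mt-Tt-201 (−3.25) and mt-Tk-201 (−3.08) had the largest differences. Of 22 mitochondrial tRNAs 10 were called higher in astrocytes and 0 higher in neurons, with a median of −2.46. Without neuron replicate 2 all 22 were called and the median was −4.52, whereas 2 to 5 were called without any other single library. The 2 mitochondrial ribosomal RNAs were not called, and mt-Rnr2-201 stood at 4612 to 5520 CPM in astrocytes and 4217 to 6491 CPM in neurons. Of 13 mitochondrial messenger RNAs only the most abundant, mt-Co1-201, was called (−1.81, or +0.40 on the scale of mature miRNAs, 193 to 233 CPM in astrocytes and 38.2, 103 and 46.2 CPM in neurons). Its call was lost without astrocyte replicate 3 or neuron replicate 3 (edgeR adjusted p 0.0521 and 0.0512), and 3 were called without neuron replicate 2.

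snoRNAs moved in both directions. Of 91 C/D box snoRNAs with Snord names, which guide 2′-O-methylation, 17 were called higher in neurons and 15 lower, with a median of +0.18, and 5 and 8 were called higher and 9 and 9 lower without astrocyte replicates 1 and 3. Of 39 H/ACA box snoRNAs, which guide pseudouridylation, 0 were called higher and 8 lower, against 10.2% and 18.5% of all features. Their median was −0.54, near that of all features (−0.50), and it was +1.86 on the scale of mature miRNAs. Whether the families differ from each other was not tested. Snord65-201 stood at 24.01, 26.7 and 26.2 CPM in astrocytes and 276, 122.5 and 145.3 CPM in neurons (+2.82 ± 0.40, edgeR adjusted p 0.00246). Gm22806-201 (+3.85) and Gm22879-201 (+2.93) were the other snoRNAs with large differences in this direction. Snora47-201 stood at 436, 403 and 351 CPM in astrocytes and 23.2, 58.8 and 40.2 CPM in neurons (−3.28 ± 0.40, edgeR adjusted p 0.0018), and Snord67-201 (−2.77), which guides modification of the spliceosomal U6 RNA, and Gm25107-201 (−2.67) followed. The 17 tested Snord116 copies of the imprinted Prader-Willi region had a median of +0.79 with 0 calls (2 higher in neurons without neuron replicate 2), although their summed level of 1024, 429 and 1100 CPM in astrocytes did not overlap with the 1379, 1331 and 1788 CPM in neurons. Of the small Cajal body RNAs with Scarna names, 2 of 9 were called higher, Scarna8 (+2.18) and Scarna10 (+1.67), and 3 were called lower (0 to 1 without astrocyte replicate 1 or 3 or neuron replicate 3).

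Small RNAs of the ribosome, the signal recognition particle and RNase P were higher in neurons. The 7SL RNA Rn7s1-201, the scaffold of the signal recognition particle, stood at 307, 234 and 314 CPM in astrocytes and 1390, 1832 and 1644 CPM in neurons (+2.51 ± 0.26, edgeR adjusted p 0.00158), and Rn7s2-201, which shares reads with it, gave +2.53. Rpph1-201, the RNA of RNase P, stood at 127, 116 and 163 CPM in astrocytes and 500, 674 and 817 CPM in neurons (+2.29 ± 0.31, edgeR adjusted p 0.00208). Rn18s-rs5, a copy of 18S ribosomal RNA, took 17623 to 20068 CPM in astrocytes and 39056 to 45278 CPM in neurons (+1.18). The groups did not overlap for any of these. Among snRNAs, Gm22220-201 (+2.16), Rnu1b6-201 (+2.01) and Rnu1b1-201 (+1.95), the last 2 being near-identical genes of U1, were higher in neurons, and Rnu5g-201 of U5 (3093 to 3310 CPM against 711 to 1794 CPM, −1.17, or +1.17 on the scale of mature miRNAs) was lower. The call of Rnu5g-201 was lost without any single library other than neuron replicate 2 (edgeR adjusted p 0.0597 to 0.0908, and −0.77 without neuron replicate 1), with library totals (−0.97), with a stricter filter (−0.95) and in 1 fit of all 18 libraries (−0.84). That of Rnu1b1-201 was lost without astrocyte replicate 3 (0.0539).

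The values of Bc1 and of the Y RNAs depended on 1 library. Bc1, a neuronal RNA of dendrites, stood at 37.3, 80.1 and 44.0 CPM in astrocytes and 62.2, 1854 and 51.6 CPM in neurons, and was not called (+3.61, edgeR adjusted p 0.0616), although it was called without neuron replicate 1 (+4.21) or 3 (+4.23). Without neuron replicate 2 its log2 fold change was +0.13. The Y RNA Rny1-201 stood at 3657 to 5821 CPM in astrocytes and 586, 4066 and 764 CPM in neurons, and was not called either (−1.29), whereas both Y RNAs were called higher in astrocytes without that library.

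Among antisense and processed transcripts averaging at least 20 CPM, Gm20628-201 and Gm20634-201 were higher in neurons and lay among histone genes. The antisense transcripts with the next largest differences, Gm15564-202 (+2.34) and Gm11131-201 (+1.49), lie on chr16 and chr17. Gm20628-201 stood at 1.62, 1.15 and 1.94 CPM in astrocytes and at 90.7, 129.9 and 152.5 CPM in neurons (+6.27 ± 0.45, edgeR adjusted p 0.00064). In GRCm39 it lies at chr3:96174391-96177605 on the minus strand and spans H3c13 on the other strand. Gm20634-201 (+6.18) at chr3:96152870-96155825 overlaps H3c14 on the same strand. Strand was not used in the counting, so reads of these transcripts and of the histone genes cannot be told apart. Lars2-205, a retained-intron transcript of a mitochondrial tRNA synthetase gene, stood at 38.2 to 70.4 CPM in astrocytes and 301 to 573 CPM in neurons (+3.03).

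The sequences annotated as piRNAs, a class otherwise known from the germ line, were called in both directions, 34 higher and 34 lower of 167 (against 10.2% and 18.5% of all features), with 19 higher without astrocyte replicate 3 and 11 to 18 lower without astrocyte replicate 1 or 3 or neuron replicate 1 or 3, and several matched other RNAs. The sequences shown had large differences among those averaging at least 20 CPM and lie in an annotated small RNA.
mmu-piR-67881: ctatgccgatcgggtgtccgcactaagtt
mmu-piR-44760: tagtgcgctatgccgatcgggtgtccgcac
mmu-piR-68767: agctggtgttgtgaatcaggccgtt
The first 2 lie whole in 7SL transcripts such as Rn7s1, overlap each other, and were higher in neurons like 7SL, at 6.81, 1.43 and 5.18 CPM in astrocytes and 37.5, 41.5 and 53.4 CPM in neurons for piR-67881 (+3.30), and with a log2 fold change of +3.25 for piR-44760. piR-68767 lies in the hairpin of Mir138-1, which gives the neuronal miR-138-5p, and was lower in neurons (−3.82), with 65.9, 87.5 and 78.7 CPM in astrocytes and 0, 12.4 and 3.00 CPM in neurons. Of the piRNAs with a sequence in the table, 60 lay in an annotated small RNA, 59 in another transcript and 23 in none. A sequence with several matches was counted under small RNA if any match was one, and piR-58696 had 2476 matches. The tally therefore does not give the origin of the reads.

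The comparison was repeated in the KIN libraries, which share no library with WT. Of 5001 features tested there, 2314 (46.3%) were called, 22.2% higher in neurons and 24.1% higher in astrocytes. Of the 606 features called higher in WT neurons, 565 were tested in KIN, 79.8% were called in the same direction and 0 in the opposite one. Of the 1092 called higher in WT astrocytes, 860 were tested, 77.3% were called in the same direction and 0 in the opposite one. For mature miRNAs 206 of 209 were called again, for protein-coding transcripts higher in neurons 232 of 273, and for processed pseudogenes higher in astrocytes only 1 of 31. The neuronal miRNAs summed to 1394 to 2514 CPM in KIN astrocytes and 113 to 241 CPM in KIN neurons, and all 12 tested were called higher in astrocytes. The histone list summed to 10.2 to 14.8 CPM in KIN astrocytes and 626 to 855 CPM in KIN neurons. Of 22 mitochondrial tRNAs all were called higher in KIN astrocytes, and of 327 tRNA gene copies 232 were. The Snord116 copies, not called in WT, were called higher in KIN neurons for 17 of 17. miR-451a was not called in KIN (+0.48), and Ttr-201 was (+4.36). A test of the difference between the KIN and WT comparisons in 1 edgeR fit of all 12 libraries called 0 of 7084 features, with 598 features reaching 0.05 before adjustment and 0 calls by DESeq2, so a call in one genotype and not in the other is not shown to differ between them.

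**Figure D5:**
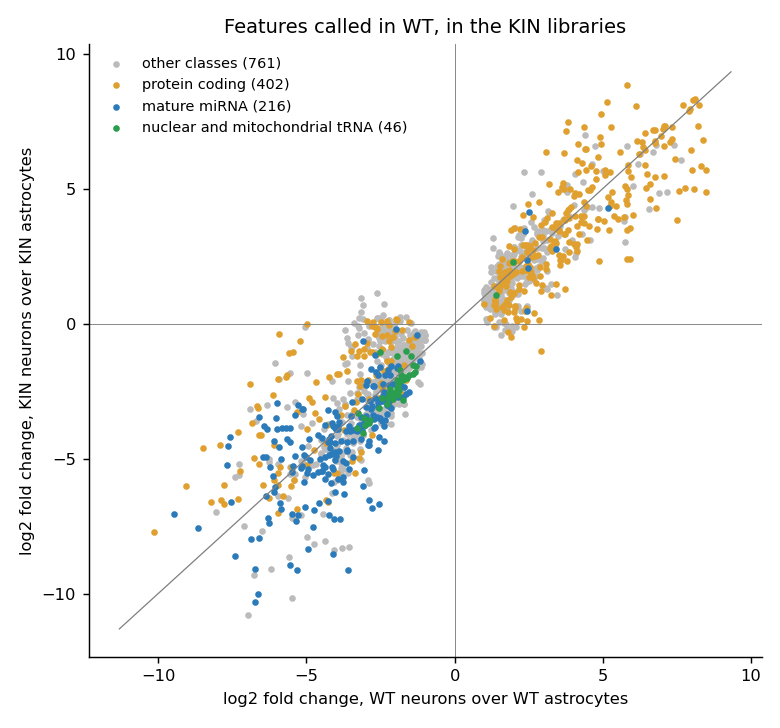
Log2 fold change of neurons over astrocytes in KIN (vertical) against WT (horizontal) for features called in WT and tested in KIN, by class. Of 565 features called higher in WT neurons 550 had the same sign in KIN, and of 860 called higher in WT astrocytes 833 had.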

How the data were processed

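Small RNA libraries of magnetically sorted WT and KIN brain cells were analysed from the counts deposited by the authors. The authors trimmed reads with cutadapt 4.6, aligned them with Bowtie2 2.4.4 to mature miRNAs, tRNA genes, piRNAs and then mm39 noncoding and coding transcripts in successive rounds, and counted with HTSeq 2.0.2 without strand. Whether molecular identifiers were collapsed is not given in the sources used here, so intervals cover counting error only. Columns of the authors' own KIN against WT fold changes and p-values, and 36 further per-sample columns, were not used. The 824 tested features without a type were named from GENCODE vM39.

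The filter kept features that reached 5 counts in 2 or more of the 6 libraries. Quasi-likelihood tests came from edgeR 4.0.16 in R 4.3.3 with TMM factors and Benjamini-Hochberg adjustment, and a call needed an adjusted p up to 0.05 and a log2 change of 1 or more. CPM are counts scaled to the TMM-adjusted library size, and SE is the log2 fold change divided by the square root of F. DESeq2 1.42.0, other scalings, filters and omissions were alternatives. Ratios with 1 to 3 counts in a group carry 95% intervals, and groups without a count a floor of 3 counts. On simulated data with known changes, 71.8% of features changed by a log2 of 3 and 7.39% of those changed by a log2 of 2 were recovered. Of those changed by a log2 of 1, 0% were recovered. A feature that was not called is therefore not shown to be equal between the groups.

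Named features were the called, non-overlapping ones of at least 20 CPM with the largest changes (8 mature miRNAs and 3 of each other class per direction), and the most abundant members of each list. The members and lists were chosen with earlier results of these data known, and the histone, cell cycle, immature neuron, choroid plexus secretory and leukocyte lists and the split of the ribosomal list after values had been seen. By the study's methods the cell types were taken from single brains of 3 WT mice, so replicates are animals and both groups share them, but no source says that a replicate number marks a brain. Same-numbered neuron and astrocyte libraries deviated together with r = 0.133, 0.286 and 0.0946, so pairing was not established.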

Additional observations from a re-analysis of the deposited data

How the results depend on the processing

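The number of features called was 1698 and stayed within 1.5 times of that with DESeq2, its size factors, library totals, other filters and 1 fit of all 18 libraries, although the last called 1132 higher in neurons. Scaled on mature miRNAs, 3104 were called, 2926 higher in neurons and 178 higher in astrocytes, and 26 features called in the main comparison were called in the opposite direction. Leaving out single libraries gave 911 to 1940 calls, 349 to 628 higher in neurons and 562 to 1312 higher in astrocytes. For tRNA isodecoders the number called was 26, and it was 49 with DESeq2, 46 with its size factors, 92 on the mature miRNA scale and 6 to 120 without single libraries. The class share difference of antisense transcripts (−0.0421 percentage points) was −0.1130 to 0.0146 without single libraries, above 0 without astrocyte replicate 1 (0.0142) or neuron replicate 1, and that of processed transcripts (0.0971) was −0.0440 (without astrocyte replicate 2) to 0.2075 without single libraries and −0.0671 outside the tRNA class. The cause of these changes was not tested.

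With the replicate number as a block, 1974 features were called, 97 isodecoders, and 20 features for the difference between KIN and WT, which was 0 to 2 without single libraries. Of 6 libraries, 5 correlated best with their own number, in part by narrow margins. For astrocyte replicate 1 the r was 0.1326 against 0.1301 with neuron replicate 3. For astrocyte replicate 3 it was 0.0946 against 0.0911 with neuron replicate 1. These comparisons share libraries, so the tally does not establish pairing.

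On the mature miRNA scale the sign turned for miR-9-3p (+1.21), miR-29a-3p (+0.0246), miR-21a-5p (+1.13), miR-143-3p (+1.75), let-7c-5p (+0.49), Top2a-204 (+1.81), Mcm7-202 (+1.73), Snap25-201 (+0.39), Rps20-202 (+0.50), mt-Co1-201 (+0.40), Rny1-201 (+0.84) and Rnu5g-201 (+1.17). Differences near 0 also turned. Without single libraries, miR-17-5p ranged from −0.0858 (without neuron replicate 2) to 0.8271, miR-20a-5p from −0.4628 to 0.5338, with −0.1650 without astrocyte replicate 1, mt-Rnr1-201 from −0.1941 to 0.2769 and mt-Rnr2-201 from −0.1354 to 0.3339, each lowest without neuron replicate 2. Without a filter, miR-20a-5p was at −0.2144, mt-Rnr1-201 at −0.2430 and mt-Rnr2-201 at −0.2298, and with the replicate block miR-20a-5p was at −0.0905 and mt-Rnr1-201 at −0.0189.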
